A study of Homo sapiens with 6 samples.

Results

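The genes described here are 40 drug-metabolizing enzymes and xenobiotic receptors, picked by symbol from the 38637 genes of a PolyA-Seq expression table. They comprise 20 cytochrome P450 enzymes, the P450 reductase POR, 10 conjugating enzymes, 5 hydrolases, and the receptor genes AHR, ARNT, NR1I2 and NR1I3. The table compared 3 libraries of HCCLM3-SR cells transfected with si-cDCBLD2 and 3 libraries of the same cells transfected with a control siRNA, siCTRL. HCCLM3-SR is a line made from the human hepatocellular carcinoma (HCC) line HCCLM3 by long exposure to rising doses of sorafenib, a multikinase inhibitor, and every library, controls included, came from cells kept in 5 μM sorafenib during the 3 days after transfection. cDCBLD2 is a circular RNA from the DCBLD2 gene that the study examined as a sponge of miR-345-5p. The comparison addresses how the knockdown of cDCBLD2 changed the transcriptome of resistant cells under the drug. No drug-free library was compared, and all 6 libraries came from 1 resistant line, transfected with 1 siRNA per group.

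Hepatocytes clear foreign compounds in steps. P450 enzymes, which draw electrons from POR, oxidize a compound, and epoxide hydrolases and carboxylesterases hydrolyze esters, amides and epoxides. UDP-glucuronosyltransferases (UGTs), sulfotransferases (SULTs), N-acetyltransferases and methyltransferases then attach a polar or methyl group. The ligand-activated factors AHR (with its partner ARNT), PXR (encoded by NR1I2) and CAR (encoded by NR1I3) set the transcription of many of these enzymes. Sorafenib itself is known as a substrate of CYP3A4 and UGT1A9.

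miR-345-5p, the microRNA that the study places opposite cDCBLD2, is shown with the stretches of the measured genes that match its seed, since these are the positions at which the genes could meet it directly. Its mature sequence in RefSeq lies at chr14:100307876-100307897 on the plus strand of GRCh38.p14, and capitals mark seed bases 2 to 8. In the GENCODE 29 transcripts of the 28 members with enough expression to test, the heptamer GAGTCAG, the complement of this seed on the transcript strand, lay in 2 of 28 3′ untranslated regions (7.1%, against 11% of the 11789 coding genes tested). It lay in 3 of 28 coding sequences (10.7%, against 12.7%). A single transcript per gene was searched, so exons outside it are not covered. The 5 stretches are printed with 11 bases on each side, and capitals mark the match.
hsa-miR-345-5p: gCUGACUCcuaguccagggcuc
CES1, from coding base 658: ccatctttggaGAGTCAGcgggaggagaa
CES2, from coding base 499: tcaccgcagtgGAGTCAGagtttcttagc
CYP2S1, from coding base 632: taccctgctggGAGTCAGctcccaggggg
CYP3A5, from 3′ untranslated base 1372: gagatgagaatGAGTCAGagagatagcat
CYP4F3, from 3′ untranslated base 2813: cttgaacccagGAGTCAGaggtttcagtg
A match of these letters is a description of the transcript and does not show that the microRNA binds there.

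The level of a gene is given in TPM, a share of transcripts scaled to 1000000 per library, which corrects for transcript length, so that levels of different genes can be set beside each other. DCBLD2, the host gene of the targeted circular RNA, measured 58.1, 25.9 and 31.6 TPM with cDCBLD2 siRNA and 71.5, 48.5 and 50.7 TPM with control siRNA (limma, adjusted p = 0.253). A value per gene does not separate the circular from the linear RNA, so it does not check the knockdown. In these cells the members of the list spanned from 0 to over 1000 TPM. Over the 6 libraries, 6 members averaged at least 100 TPM (CES1, UGT1A1, UGT1A9, UGT1A6, EPHX1 and POR), 15 averaged at least 10 TPM, and 13 averaged from 1 to 10 TPM. The other 12 averaged under 1 TPM and were not tested. Among these 12, 3 were listed at 0 in every library, namely CYP2C8, UGT2B4 and SULT2A1, and 9 were above 0. CYP3A4, the main drug-oxidizing P450 of adult liver, held between 0 and 3 reads per library, and CYP2B6 and CYP2C19, both drug-oxidizing P450 enzymes, between 0 and 3 reads. The hepatocyte label was only partly met by its markers. HNF4A averaged 23.4 ± 0.399 TPM in the control libraries and 29.1 ± 2.15 TPM in the cDCBLD2 siRNA libraries (SD, n = 3 each), whereas ALB stayed between 0.189 and 1.58 TPM and TF under 0.08 TPM.

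**Figure D1:**
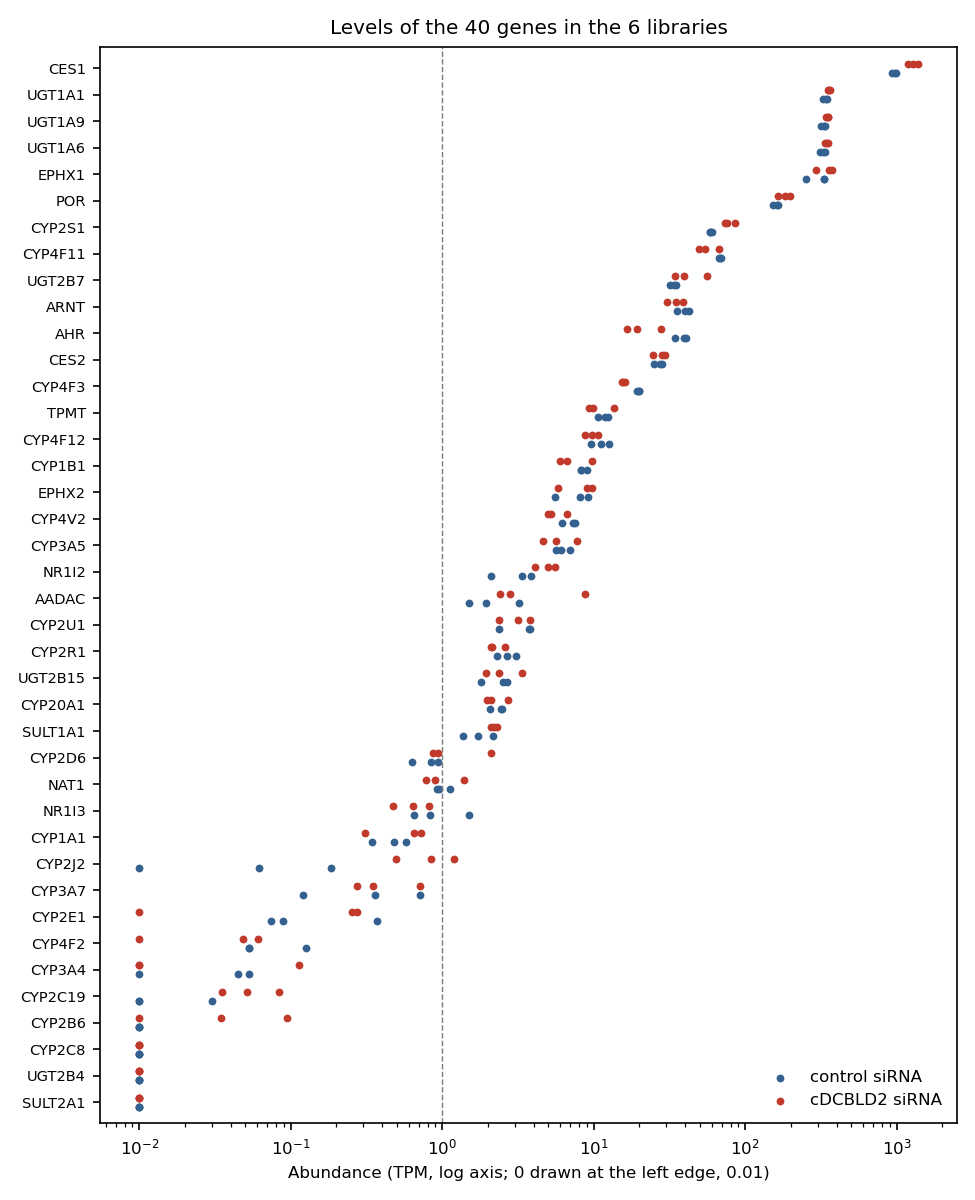
TPM of each of the 40 genes in the 6 libraries (log axis, one row per gene in order of mean level, 0 drawn at 0.01; blue points are control siRNA libraries, red points cDCBLD2 siRNA libraries; the dashed line marks 1 TPM, the lowest mean tested). CES1 stands at 935 to 1382 TPM at the top, and CYP2C8, UGT2B4 and SULT2A1 lie at 0 in all libraries.

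Each gene with a mean of at least 1 TPM was tested with limma on log2(TPM + 1), 13980 genes in all, and p-values were adjusted by the Benjamini-Hochberg method over all of them. All log2 fold changes below are cDCBLD2 siRNA over control siRNA on that scale, and they understate the change of genes near 1 TPM. Of the 28 members tested, 0 were higher (0.25% of all genes tested were) and 0 were lower (0.629% of all genes) at an adjusted p under 0.05. Unadjusted, 5 of the 28 had a p under 0.05, as did 3654 of the 13980 genes. limma-voom on recovered read numbers called 2 members higher, CES1 and CYP2S1 (1.29% of all genes), and 0 lower (1.72% of all genes). There 10 of 30 members had an unadjusted p under 0.05, as did 3981 of 15018 genes. Since libraries that share a replicate number departed from their groups in the same genes, a fit with that number as a block was run as well, named the blocked fit below. It called 4 members higher and 2 lower. In that fit 9.94% of all genes were higher and 25% were lower. The members higher were CES1, CYP2S1, EPHX1 and POR, the members lower were AHR and CYP4F3, and 0 of the 6 had a log2 fold change beyond 1 in size. Read against these shares, 4 of 28 members higher lay near the share of all genes and 2 of 28 lower lay under it, and neither difference was tested. The median log2 fold change of the 28 members was 0.05, and that of all genes tested was -0.08. Among the members 16 lay above 0 and 12 below. The 16 include UGT1A1, UGT1A6 and UGT1A9, which share nearly all their reads.

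The 3 values of one group lay wholly above those of the other for 7 tested members that were higher with cDCBLD2 siRNA (9.58% of all genes) and for 3 that were lower (22.3% of all genes). The 7 were CES1, UGT1A1, UGT1A9, UGT1A6, POR, CYP2S1 and NR1I2. The UGT1A genes among them share nearly all their reads, so a single locus enters this count repeatedly. The 3 that were lower were AHR, CYP4F11 and CYP4F3. The groups overlapped for the other 18. Whether the replicates came from separate cultures is not given in the sources used here, so the p-values measure only the spread between these libraries, which may be technical. In bulk RNA, fewer cells of a kind and less RNA per cell cannot be told apart.

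**Figure D2:**
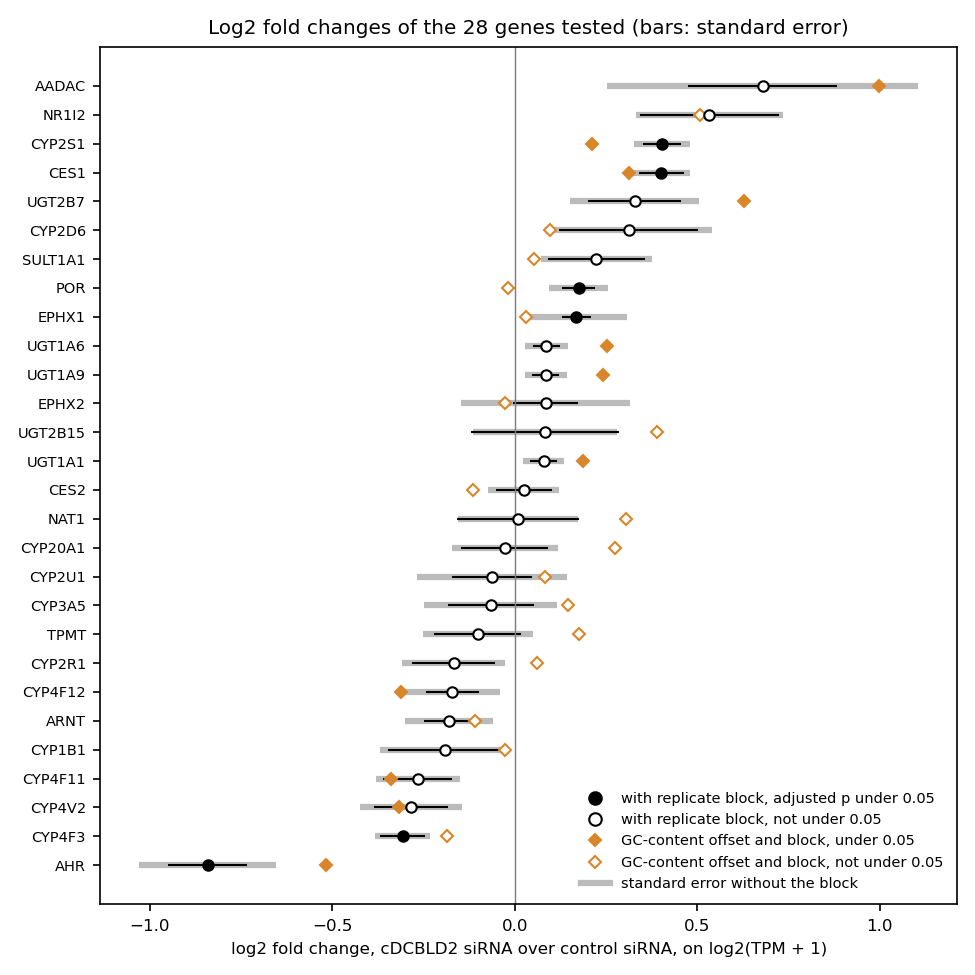
Log2 fold changes of the 28 genes tested, in order of size. Circles are the fit with the replicate block with its standard error (thin bar; thick grey bar, standard error without the block), diamonds the fit with a GC-content offset and the block, and filled symbols an adjusted p under 0.05. AHR lies lowest at -0.84, and AADAC highest at 0.68 with the widest bar.

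A trend with base composition ran through the comparison and touched these genes unequally. Genes were ranked by the GC content of their transcripts and cut into 5 bins of near equal size. The median log2 fold change was -0.40 in the bin of lowest GC and 0.11 in that of highest GC, and the bins held 7, 8, 4, 5 and 4 members in rising order. With each library's trend over GC content removed and the replicate block kept, 7 members were higher (6.87% of all genes) and 4 were lower (24.2% of all genes). The 7 include UGT1A1, UGT1A6 and UGT1A9, which share nearly all their reads. CES1, CYP2S1 and AHR were called in the same direction with and without this offset. EPHX1, POR and CYP4F3 were called only without it, and AADAC, UGT2B7, UGT1A1, UGT1A6, UGT1A9, CYP4F11, CYP4F12 and CYP4V2 only with it. The GC content is that of a single GENCODE transcript per gene. Relative to the median coding gene, reads and TPM implied 2.35 times its length for CYP4F12, 2.06 times for CYP4V2 and 0.63 times for UGT1A1, each called only with the offset. They implied 5.23 times for CYP20A1, 4.86 times for CYP2R1 and 2.01 times for CYP3A5, uncalled genes whose log2 fold changes switched sign under it. For all of these genes the GC content of what was counted, and so the offset, is uncertain. Values with this offset are given below beside the genes whose call it changes, and whether the GC trend arose in the libraries or in the cells was not tested.

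Among the receptors, AHR stood out. On the log2(TPM + 1) scale it had the largest log2 fold change in size of the 28 members tested. With the GC-content offset AADAC and UGT2B7 both exceeded it in size (0.997 and 0.627, against -0.516). AADAC also did so in limma-voom and in some fits with a library left out. AHR, the aryl hydrocarbon receptor (chr7:16916359-17346152, plus strand, GRCh38), is held in the cytoplasm with HSP90 until a ligand binds, and then enters the nucleus. It measured 27.7, 16.5 and 19.4 TPM with cDCBLD2 siRNA (replicates 1 to 3) and 40.3, 34.3 and 39.3 TPM with control siRNA. Every knockdown value lay below every control value, and the means were 21.2 ± 5.85 and 38.0 ± 3.22 TPM (SD, n = 3 each), a ratio of 0.558. The log2 fold change was -0.84 ± 0.187 (SE), with an adjusted p of 0.0711 without the block. In the blocked fit AHR fell, with an SE of 0.109 and an adjusted p of 0.0068. The GC-content offset and block gave -0.52 (adjusted p = 0.00743). The AHR transcript has 38.2% GC and belongs to the bin of lowest GC, whose median lay on the same side. Without the replicate 3 libraries the blocked adjusted p was 0.052. Without cDCBLD2 siRNA replicate 1 the fit with no block gave an adjusted p of 0.0125. That fit called 4.64% of all genes higher and 19.8% lower. Without each of the other libraries in turn AHR had an adjusted p of 0.192 to 0.248, in fits that called 0 of all genes.

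ARNT, with which ligand-bound AHR forms its DNA-binding dimer, measured 30.2, 39.0 and 34.7 TPM against 35.2, 39.9 and 42.8 TPM. These groups overlapped, and the log2 fold change of -0.18 had a blocked adjusted p of 0.0925. NR1I2, the gene of the pregnane X receptor PXR, lay at low levels. It measured 5.58, 4.07 and 4.97 TPM against 2.11, 3.34 and 3.86 TPM, so each knockdown library lay above each control library. Its log2 fold change of 0.53 ± 0.201 (SE) did not pass the test without the block (adjusted p = 0.161) or with it (adjusted p = 0.0819), and it rested on 113 to 128 reads per knockdown library and 42 to 91 per control library. NR1I3, the gene of CAR, averaged under 1 TPM and was not tested. It measured 0.475, 0.641 and 0.816 TPM against 0.651, 1.5 and 0.823 TPM, which overlapped.

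The genes that AHR is best known to induce can be set beside it. CYP1A1, which hydroxylates polycyclic aromatic compounds, held 6 to 16 reads per library and measured 0.720, 0.652 and 0.307 TPM against 0.342, 0.574 and 0.480 TPM, with overlap. CYP1B1, a P450 of estrogens and aromatic procarcinogens, measured 9.75, 5.96 and 6.66 TPM against 8.21, 9.07 and 8.21 TPM, with a log2 fold change of -0.19 and a blocked adjusted p of 0.373. NQO1 and ALDH3A1, a quinone reductase and an aldehyde dehydrogenase, averaged 1608 against 1636 TPM and 585 against 600 TPM, and neither passed the test with or without the block. ALDH3A1 fell by 0.23 on the log2 scale with the GC-content offset and block (adjusted p = 0.0249), and NQO1 was at 0.08 there (adjusted p = 0.123). TIPARP, which acts on AHR in a feedback loop, averaged 18.4 against 23.0 TPM and fell in the blocked fit (log2 fold change -0.31, adjusted p = 0.0161). It was at -0.10 with the GC-content offset and block (adjusted p = 0.217). The AHR repressor AHRR lay near 1 TPM in all libraries (blocked adjusted p = 0.633).

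The core of the DNA element that AHR and ARNT bind, GCGTG, was sought on both strands in the 250 bases before the RefSeq start of 31 members with a promoter entry. It occurred in 6 of them (19.4%), against 31.9% of 27305 promoters. The longer form TNGCGTG, which contains the core, occurred in 3 (9.7%, against 4.5%). The 6 members were CYP1A1, CYP2J2, CYP20A1, UGT1A6, UGT1A9 and CES2. Stretches of 29 bases from 3 of them are printed on the strand of the gene, with the core in capitals, because CYP1A1 is the textbook target of AHR, UGT1A6 is another of its known targets and CYP2J2 is described below.
CYP1A1, chr15:74725569-74725597, minus strand: ccagggaaggagGCGTGgccacacgtaca
CYP2J2, chr1:59926891-59926919, minus strand: tctgagaccggtGCGTGtcctcccgggaa
UGT1A6, chr2:233691490-233691518, plus strand: gaacaggaactcGCGTGccagccaggtgt
Coordinates are those of GRCh38.p14, and a match says only that the letters are there.

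**Figure D3:**
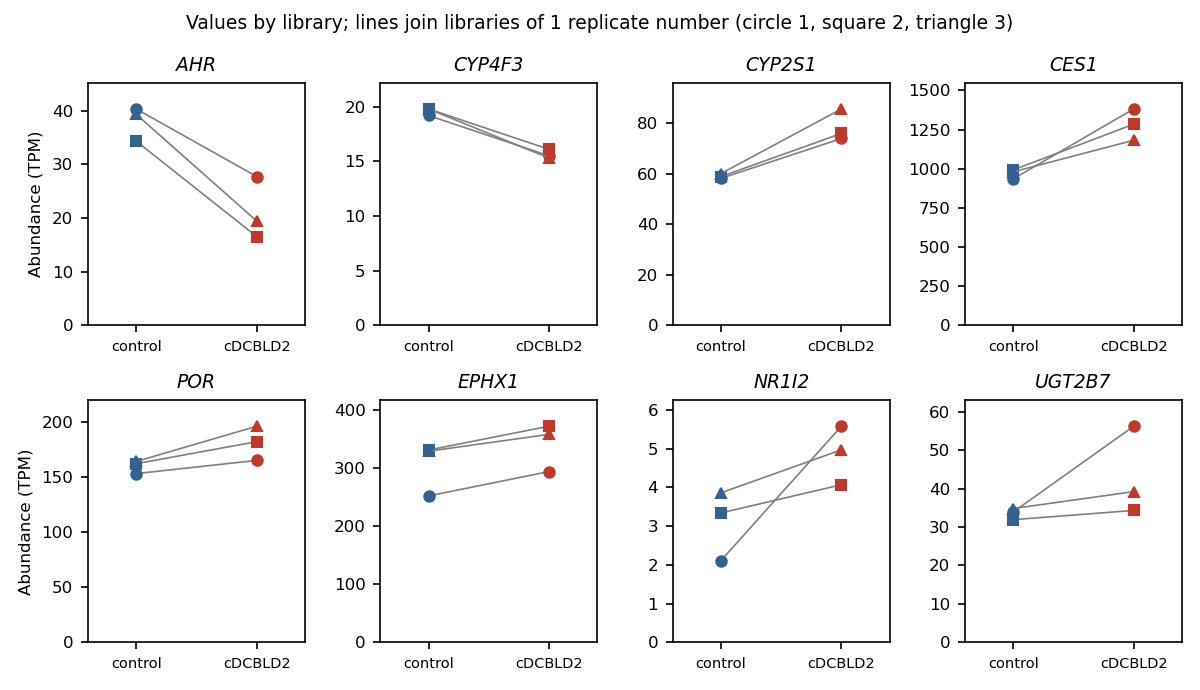
TPM of 8 members in each library, from 0 on each axis (blue, control siRNA; red, cDCBLD2 siRNA; lines join libraries of the same replicate number). All 3 lines fall for AHR and CYP4F3 and rise for CYP2S1, CES1, POR, EPHX1, NR1I2 and UGT2B7, and the replicate 1 pair is the steepest for CES1, NR1I2 and UGT2B7.

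POR hands electrons from NADPH to all microsomal P450 enzymes. The gene (chr7:75899200-75986855, plus strand) measured 165, 182 and 196 TPM with cDCBLD2 siRNA and 153, 162 and 164 TPM with control siRNA. The groups did not overlap, and the means were 181 ± 15.4 and 160 ± 5.93 TPM (SD, n = 3 each). POR rose in the blocked fit, by 0.17 ± 0.0451 (SE) on the log2 scale (adjusted p = 0.0335, against 0.222 without the block). The offset and block together gave -0.02 (adjusted p = 0.72), and POR, with 61.3% GC, belongs to the bin of highest GC. Leaving out replicate 2 or replicate 3 raised the blocked adjusted p to 0.15 and 0.196.

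Of the 20 P450 enzymes 11 were tested. Their summed level hardly differed between groups, at 185 to 199 TPM with cDCBLD2 siRNA and 185 to 193 TPM with control siRNA. Of the 11, 2 lay above 0 and 9 below, with a median log2 fold change of -0.17, against -0.08 over all genes. In the blocked fit 1 was higher, CYP2S1, and 1 was lower, CYP4F3, against 9.94% and 25% of all genes.

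CYP2S1, a P450 of extrahepatic epithelia that metabolizes retinoic acid (chr19:41193049-41207539, plus strand), had the highest mean of the P450 enzymes over the 6 libraries, with CYP4F11 above it in each control library. It measured 73.9, 75.9 and 85.6 TPM against 58.1, 58.8 and 60 TPM, with no overlap. The means were 78.5 ± 6.27 and 59.0 ± 0.971 TPM (SD, n = 3 each), a ratio of 1.33. The log2 fold change was 0.40 ± 0.0765 (SE), with an adjusted p of 0.0606 without the block. CYP2S1 rose in the blocked fit (SE 0.0527, adjusted p = 0.0069), and with the GC-content offset and block it rose by 0.21 (adjusted p = 0.0182). Without replicate 3 the blocked adjusted p was 0.0548. With no block it was 0.0179 without cDCBLD2 siRNA replicate 1, and 0.167 to 0.224 without each of the other libraries.

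The CYP4F genes, which ω-hydroxylate leukotrienes and other long fatty acids, sit side by side on chromosome 19 and all lay on the lower side. CYP4F3 (chr19:15640897-15662825, plus strand) measured 15.5, 16.1 and 15.3 TPM against 19.2, 19.8 and 19.8 TPM. The groups did not overlap, and the means were 15.6 ± 0.397 and 19.6 ± 0.332 TPM (SD, n = 3 each), a ratio of 0.799. CYP4F3 fell in the blocked fit (log2 fold change -0.31, SE 0.061, adjusted p = 0.0166), and the adjusted p was 0.0837 without the block and 0.0543 with the GC-content offset and block. Without replicate 2 or replicate 3 the blocked adjusted p was 0.0981 and 0.124. With no block it was 0.0386 without cDCBLD2 siRNA replicate 1, and 0.195 to 0.276 without each of the other libraries. CYP4F11 measured 66.6, 54.4 and 49.3 TPM against 66.7, 68.1 and 68.8 TPM, so that replicate 1 hardly differed and replicates 2 and 3 lay lower with cDCBLD2 siRNA (log2 fold change -0.27, blocked adjusted p = 0.0805). CYP4F12 averaged 9.74 against 11.1 TPM (-0.17, blocked adjusted p = 0.124). With the GC-content offset and block CYP4F11 and CYP4F12 fell by 0.34 (adjusted p = 0.0458) and by 0.31 (adjusted p = 0.0249) on the log2 scale. CYP4F2 held 0 to 2 reads per library. These genes are near copies of each other, and how the counting shared reads among them is not given in the sources used here, so the value of each is uncertain.

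CYP4V2, a fatty acid ω-hydroxylase known from a retinal dystrophy, measured 4.95, 6.61 and 5.22 TPM against 6.18, 7.30 and 7.56 TPM. These groups overlapped (log2 fold change -0.28, SE 0.14, blocked adjusted p = 0.0801), and CYP4V2 fell with the GC-content offset and block (-0.32, adjusted p = 0.0483). The other tested P450 enzymes were CYP1B1, CYP2D6, CYP2R1, CYP2U1, CYP3A5 and CYP20A1. Their log2 fold changes ran from -0.19 for CYP1B1 to 0.31 for CYP2D6, and 0 of the 6 passed the test without the block, with it, or with the GC-content offset and block. CYP3A5, which shares many substrates with CYP3A4, averaged 5.99 ± 1.58 against 6.21 ± 0.649 TPM (SD, n = 3 each). CYP2D6 rested on 8 to 23 reads per library, with its highest value, 2.09 TPM, in cDCBLD2 siRNA replicate 1. Reads of CYP3A5 and CYP3A7, and of CYP2D6 and its pseudogene, may be shared in the same way as those of the CYP4F genes.

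CYP2J2, which forms epoxides of arachidonic acid, averaged 0.465 TPM and was not among the genes tested, and it is named here after its values were seen. It measured 0.497, 1.20 and 0.844 TPM with cDCBLD2 siRNA and 0, 0.184 and 0.0615 TPM with control siRNA, so that the groups did not overlap. The recovered reads numbered 7, 23 and 15 against 0, 3 and 1, in sum 45 against 4. The ratio of read rates was 10.5, with a 95% interval of 3.83 to 40.3 that covers counting error only. In the fit with no filter on low values its log2 fold change was 0.76 ± 0.153 (SE), with an adjusted p of 0.12. CYP2C19 held 1 to 3 reads per knockdown library and 0 or 1 per control library, so its reads tied at 1. Its groups stood apart in TPM only through the scaling of that read (0.0349 against 0.0302). How many of all genes under 1 TPM had groups without overlap was not counted. CYP2E1 (0 to 5 reads), CYP3A7 (2 to 14 reads), CYP1A1 and NR1I3 overlapped.

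Among the conjugating enzymes the 3 UGT1A members stood highest, and they cannot be read as 3 measurements. UGT1A genes are alternative first exons of one locus on chromosome 2, each spliced to the same exons 2 to 5, and the first exon carries the substrate specificity. In GENCODE 29 the shared exons hold 1478 bases, which is 62.0% of the UGT1A1 transcript, 59.6% of that of UGT1A6 and 61.2% of that of UGT1A9. The junction of first and second exon is shown for the 3 members and for UGT1A5, to make visible where the transcripts part. Lower case marks the last 15 bases of the first exon and capitals the first 15 bases of exon 2, which starts at chr2:233767034 on the plus strand of GRCh38.
UGT1A1, first exon chr2:233760248-233761151: aatccactatcccagGAATTTGAAGCCTAC
UGT1A6, first exon chr2:233692866-233693865: aaagacttgtctcagGAATTTGAAGCCTAC
UGT1A9, first exon chr2:233671853-233672789: aagccgttgcctatgGAATTTGAAGCCTAC
UGT1A5, first exon chr2:233712992-233713858: aagccactatctcagGAATTTGAAGCCTAC

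UGT1A1, the bilirubin-conjugating enzyme, measured 349, 365 and 357 TPM with cDCBLD2 siRNA and 327, 341 and 346 TPM with control siRNA. UGT1A9 measured 342, 354 and 349 TPM against 316, 332 and 337 TPM, and UGT1A6, which conjugates small phenols, 337, 352 and 345 TPM against 312, 328 and 334 TPM. In each case the groups did not overlap, and the log2 fold changes were 0.08, 0.08 and 0.09 with blocked adjusted p-values of 0.15, 0.13 and 0.127. With the GC-content offset and block, which takes the GC content of each gene's own transcript, they were 0.19, 0.24 and 0.25 (adjusted p = 0.0154, 0.00894 and 0.0086).

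The reads behind these values were nearly all the same reads. UGT1A5, the lowest in mean, had between 5063 and 7913 per library, and UGT1A9 differed from it by -1 to 2 reads in each library. UGT1A9, the enzyme known to glucuronidate sorafenib, therefore had almost no reads of its own, and its level of 316 to 354 TPM came from exons that other UGT1A transcripts share. UGT1A1 had 99, 201 and 148 reads above UGT1A5 with cDCBLD2 siRNA and 141, 146 and 160 with control siRNA, 1.73% to 2.71% of its total. UGT1A6 had 399, 626 and 540 against 350, 459 and 498, 6.47% to 7.33% of its total. Per 1000000 recovered reads, UGT1A1 averaged 7.06 ± 1.55 against 7.69 ± 0.432 and UGT1A6 24.9 ± 2.18 against 22.3 ± 2.14 (SD, n = 3 each). Both overlapped between groups, with an exact two-sided permutation p of 0.6 for UGT1A1 and 0.2 for UGT1A6, where 3 against 3 libraries cannot go below 0.1. Within replicate numbers 1 to 3, UGT1A6 was higher with cDCBLD2 siRNA in each, at 22.8 against 20, 27.1 against 22.7 and 24.8 against 24.2, and these pairs were not tested separately. Most reads outside the shared part belonged to UGT1A10, an enzyme of the intestine that is not among the 40, with 2394, 3632 and 3180 reads above UGT1A5 against 2232, 2877 and 2864. In reads scaled as above these were 137, 157 and 146 against 128, 142 and 139, higher with cDCBLD2 siRNA within each number and overlapping between groups. The differences of the 3 members in TPM are thus 1 difference of the whole locus, counted 3 times.

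UGT2B7, which glucuronidates morphine and steroids, measured 56.2, 34.3 and 39.2 TPM against 33.9, 31.9 and 34.8 TPM. The groups overlapped, and cDCBLD2 siRNA replicate 1 stood highest. Its log2 fold change was 0.33 ± 0.177 (SE), with a blocked adjusted p of 0.0976, and with the GC-content offset and block UGT2B7 rose by 0.63 (adjusted p = 0.00768). Without cDCBLD2 siRNA replicate 1 its log2 fold change was 0.13 (adjusted p = 0.321, no offset or block). Of the 10 conjugating enzymes 8 were tested, and 7 lay above 0, the UGT1A members among them. Without the block 0 were called (0.25% of all genes higher and 0.629% lower), and 0 with it (9.94% and 25%). TPMT, the thiopurine methyltransferase, averaged 10.9 against 11.7 TPM. SULT1A1, UGT2B15 and NAT1 lay between 0.782 and 3.38 TPM in all libraries, with log2 fold changes of 0.22, 0.08 and 0.01.

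The 5 hydrolases all lay above 0, with a median log2 fold change of 0.17, against -0.08 over all genes. In the blocked fit 2 of the 5 rose and 0 fell, against 9.94% of all genes higher and 25% lower. The summed level of the 5 was 1579 to 1720 TPM with cDCBLD2 siRNA and 1224 to 1361 TPM with control siRNA, and CES1 made up most of it. CES1, the main carboxylesterase of liver, which hydrolyzes ester drugs and cholesterol esters (chr16:55802851-55833337, minus strand), was the most abundant member of the list. It measured 1382, 1285 and 1182 TPM against 935, 992 and 980 TPM. The groups did not overlap, and the means were 1283 ± 100 and 969 ± 30.1 TPM (SD, n = 3 each), a ratio of 1.32. The log2 fold change was 0.40 ± 0.0776 (SE), with an adjusted p of 0.0621 without the block. CES1 rose in the blocked fit (SE 0.0628, adjusted p = 0.00946) and, by 0.31, with the GC-content offset and block (adjusted p = 0.0207). It was the only member that stayed under 0.05 in the blocked fit when any one replicate number was left out, with adjusted p-values of 0.00741, 0.0484 and 0.0454 without replicates 1, 2 and 3. Without cDCBLD2 siRNA replicate 1 the fit with no block gave 0.022, and without each of the other libraries 0.175 to 0.224.

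EPHX1, the microsomal epoxide hydrolase (chr1:225810092-225845563, plus strand), measured 294, 372 and 358 TPM against 252, 331 and 329 TPM. The groups overlapped because both replicate 1 libraries were low, while within each replicate number the knockdown value lay above the control value. EPHX1 rose in the blocked fit by 0.17 ± 0.0397 (SE) on the log2 scale (adjusted p = 0.0259, against 0.472 without the block), and with the GC-content offset and block it was at 0.03 (adjusted p = 0.651). Without replicate 2 or replicate 3 the blocked adjusted p was 0.143 and 0.102. AADAC, an esterase of the endoplasmic reticulum, had the highest log2 fold change of the members tested, 0.68, and the largest error, 0.426 (SE). It measured 8.71, 2.41 and 2.80 TPM against 3.19, 1.94 and 1.49 TPM, so that 1 library, cDCBLD2 siRNA replicate 1, stood far above the others, and the groups overlapped. Its blocked adjusted p was 0.0508, and without cDCBLD2 siRNA replicate 1 the log2 fold change was 0.20 (adjusted p = 0.564, no block). With the GC-content offset and block it was 0.997 (adjusted p = 0.00963). CES2 averaged 27.3 against 26.8 TPM and EPHX2, the soluble epoxide hydrolase, 8.15 against 7.61 TPM, both with overlap.

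The wider pathway was read from 4 further gene lists, whose counts stand against the 0.25% of all genes higher and 0.629% lower without the block and the 9.94% higher and 25% lower with it. Of 35 other P450 enzymes 10 were tested. Without the block 0 were called, and in the blocked fit 2 were higher, CYP27A1 and CYP24A1 of sterol and vitamin D metabolism (log2 fold changes 0.30 and 0.47, adjusted p = 0.0152 and 0.0331), and 1 was lower, CYP51A1 of cholesterol synthesis (-0.71, adjusted p = 0.0066). The GC-content offset and block gave 0.11 for CYP27A1, which was no longer called (adjusted p = 0.158), 0.58 for CYP24A1 and -0.47 for CYP51A1 (adjusted p = 0.0191 and 0.00816). Of 40 other conjugating enzymes 18 were tested, and 1 fell without the block, UGDH. UGDH makes UDP-glucuronic acid, the sugar donor of glucuronidation. It measured 442, 436 and 399 TPM against 658, 645 and 664 TPM, with no overlap and a log2 fold change of -0.62 ± 0.064 (SE; adjusted p = 0.0444, and 0.00436 with the block). UGDH fell with the GC-content offset and block too, by 0.36 on the log2 scale (adjusted p = 0.00811). The blocked fit also called ACSM3 lower and SULT1C2 higher (-0.57 and 0.40, adjusted p = 0.0161 and 0.0314). Under the offset and block ACSM3 was at -0.28 (adjusted p = 0.0503) and SULT1C2 at 0.56 (adjusted p = 0.00897).

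Of 54 other oxidoreductases and hydrolases 35 were tested, and 0 were called without the block. With it 5 were higher and 8 lower, against 9.94% and 25% of all genes. The largest of these were ALDH3B1 and CDA, an aldehyde dehydrogenase and cytidine deaminase, both at 0.48 (blocked adjusted p = 0.00632 and 0.00653), DPYD, which degrades fluorouracil, at -0.56 (0.0195), and CES3 at 0.36 (0.0175). The GC-content offset and block took DPYD to -0.29 and CES3 to 0.18, neither of them called (adjusted p = 0.0567 and 0.0676), and ALDH3B1 and CDA to 0.29 and 0.33, both called (0.0306 and 0.0171). Of 26 partners of the receptors and of P450 enzymes 25 were tested, and 0 were higher and 2 lower without the block. With it 3 were higher and 12 lower, against the same shares of all genes. Coregulators of nuclear receptors made up 3 of the 4 largest of these changes. The coactivator NCOA3 measured 21.1, 16.0 and 17.7 TPM against 31.9, 31.1 and 33.1 TPM (log2 fold change -0.79, adjusted p = 0.0451, with the block 0.00518), and the corepressor NCOR1 32.6, 27.4 and 28.3 TPM against 51.6, 46.1 and 51.5 TPM (-0.74, adjusted p = 0.0444, with the block 0.00436). NCOA2 was at -0.78 and HSP90AA1, the AHR chaperone, at -0.70 (blocked adjusted p = 0.0104 and 0.00859). All 4 were also lower with the GC-content offset and block, at -0.57 for NCOA3, -0.61 for NCOR1, -0.59 for NCOA2 and -0.57 for HSP90AA1. HSP90AA1 differed widely between replicate numbers, at 693, 258 and 290 TPM against 902, 485 and 504 TPM. The median log2 fold changes of the 4 lists were 0.04, 0.08, -0.09 and -0.09, against -0.08 over all genes. The list of conjugating enzymes holds UGT1A3, UGT1A4, UGT1A5, UGT1A7, UGT1A8 and UGT1A10, which share most of their reads. Each of these lay at 0.08 or 0.09, so a single locus enters that median repeatedly.

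Facts of the whole comparison bear on all of these genes. The recovered reads numbered 17492673 to 23064302 per library, with the fewest in the replicate 1 library of each group, and counting error was small for members above 10 TPM. Of 13 hepatocyte markers 7 were tested and their summed level was 164 to 166 TPM against 143 to 158 TPM. In the blocked fit 2 of them were higher, AHSG and HNF4A, and 1 lower, APOB. These and the marker counts below stand against 9.94% of all genes higher and 25% lower in that fit. The 5 epithelial markers summed to 5862 to 7008 TPM against 4856 to 5659 TPM, with 2 higher in the blocked fit and EPCAM near 0. The 8 leukocyte, endothelial and stromal markers summed to 116 to 135 TPM against 98.2 to 120 TPM. CD68, a lysosomal protein that many tumor cells also express, made up most of this sum, at 96.1 to 125 TPM against 90 to 111 TPM, and PECAM1 lay at 4.35 to 5.11 TPM against 3.63 to 5.64 TPM. Of this list, 2 of the 4 tested were higher in the blocked fit, COL1A1 and COL3A1, while DES was at 0 and PTPRC, VWF and LYVE1 were under 0.5 TPM in all libraries. The part of these markers in the differences above was not tested.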

How the data were processed

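RNA of 6 HCCLM3-SR libraries was measured by PolyA-Seq. The authors deposited TPM values per gene; the submitters' processing notes name fastp 0.20.1, HISAT2 2.1.0, StringTie 2.0 and hg38, without roles. TPM keeps no depth, but ratios between libraries gave whole reads for 100% of the 17285 genes above 0 in every library (0.1% of 2000 genes when library factors were moved by up to 10%). These reads are lower bounds, since a factor common to all libraries cannot be seen, and intervals on them cover counting error only.

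Groups and replicate numbers came from the sample titles. The members and all gene lists were chosen with earlier results of these data known. limma 3.58.1 (R 4.3.3, trend) was fitted to log2(TPM + 1) of genes averaging 1 TPM or more, over all 6 libraries, with Benjamini-Hochberg adjustment and a threshold of 0.05. The pairing of replicate numbers was checked from the deviations of same-numbered libraries from their group means, which correlated across genes at 0.56, 0.343 and 0.362 for numbers 1 to 3. All exceed 0.1, so the fit with the number as a block is given beside each result it changes. Between unlike numbers the highest correlation was -0.376 for number 1 and 0.247 for numbers 2 and 3. The value of 0.247 also exceeds 0.1, so the check sets number 1 apart more clearly than numbers 2 and 3. The labels do not say what the number stands for.

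Alternatives were upper-quartile scaling, no filter, a pseudocount of 0.1 TPM, loess offsets (span 0.5) for GC content or transcript length, limma-voom on recovered reads (at least 10 reads in 3 libraries), and each library left out. The authors' own test, DESeq2 per the paper, was not run here, neither on the deposited TPM values, which are not counts, nor on the recovered reads. GENCODE 29 (GRCh38) gave GC content, exons and coordinates, with 25655 genes matched by symbol, 541 by synonym and 12441 not matched. Of the genes tested 92.7% had a GC content. RefSeq gave promoters and the microRNA. Scripts ran in Python 3.11.15 (numpy 2.4.6, pandas 2.3.3, numba 0.67.0, matplotlib 3.10.9) and were tested on simulated data.

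All 40 members are accounted for. Values per library are given for members past the threshold with or without the block, the receptors, POR, the 3 most abundant members and the 3 largest and 3 smallest log2 fold changes, and for those of direct interest beside them. Of each further list, up to 4 called genes of largest size are named.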

Additional observations from a re-analysis of the deposited data

How the results depend on the processing

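Of the 40 genes, 0 were called higher and 0 lower without the replicate block, and the same counts came from upper-quartile scaling, a pseudocount of 0.1 TPM, no filter on low values and the length offset. The replicate block gave 4 higher and 2 lower (9.94% and 25% of all genes). The GC-content offset gave 1 and 1, UGT2B7 and AHR (0.363% and 1.6%). Both together gave 7 and 4 (6.87% and 24.2%), with the 3 UGT1A genes among the 7. The length offset with the replicate block gave 3 and 3 (11.9% and 26.2% of all genes), and limma-voom 2 and 0 (1.29% and 1.72%). limma-voom with the replicate block gave 10 and 2 (17.5% and 20.5% of all genes). Of these 10, 3 are the UGT1A genes that share reads. CES1, CYP2S1 and AHR were called in all 4 fits with the block over 6 libraries. Leaving out libraries gave 0 to 4 members higher and 0 to 4 lower. Without cDCBLD2 siRNA replicate 1 the counts were 2 and 4 (4.64% and 19.8% of all genes). The members were CES1 and CYP2S1 higher, and AHR, CYP1B1, CYP4F11 and CYP4F3 lower. Without each of the other 5 libraries the counts were 0 and 0. Those fits called 0 of all genes, so they show nothing particular to the members. With the block, the counts were 4 and 4 without replicate 1 (11.3% and 28% of all genes). They were 2 and 1 without replicate 2 (2.98% and 7.75%), and 1 and 0 without replicate 3 (1.32% and 3.19%). Over all genes, 35 higher and 88 lower became 1390 and 3501 with the block, 59 and 62 with upper-quartile scaling and 3 and 1 with no filter. The members' median log2 fold change of 0.052 was -0.041 without replicate 1 (block), 0.112 with upper-quartile scaling and 0.149 with limma-voom. Of 532 comparisons of a member with an alternative, 0 called values changed sign, 57 passed the threshold newly, and 51 values called in neither fit changed sign, POR with the GC-content offset among them (-0.019). At under 20 reads per library, as for CYP1A1 or CYP3A7, differences of the size seen in CES1 may go undetected.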
